A study of Xenopus laevis with 4 samples.

Results

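The genes described here are the immediate early genes of the AP-1, egr and ier families in Xenopus laevis embryos: fos, fosl1, fosl2, jun, junb, jund, egr1, ier2, ier5 and atf3. They were chosen by name. Every row of the deposited count table whose symbol, without its final .L or .S, is one of these 10 was taken, which gave 20 of 49078 features. X. laevis is allotetraploid, and each of the 10 genes had an L and an S copy (homeologs, on the long and the short chromosome of a pair) in the table. Numbered or suffixed relatives such as ier5l and jund.2 were left out. All 20 symbols matched a protein-coding gene in RefSeq's X. laevis v10.1 annotation. There only jund.S overlapped another annotated gene by the start and end of the whole genes. Strand and exons were not compared, so whether that pair can share reads is not known.

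Immediate early genes are transcribed within minutes of a signal, without new protein synthesis, and their messenger RNAs are short-lived. Fos and Jun proteins are basic leucine zipper (bZIP) factors that bind DNA together as the AP-1 dimer, and Egr1 is a zinc finger factor induced through MAP kinase and the serum response factor. In frog embryos, AP-1 has been linked to mesoderm induction, and egr1 to the MAP kinase response of the early embryo.

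The table held 2 libraries of EU-RNA and 2 of total RNA, called Normal, all from mid-blastula embryos at about 9 hours post fertilization. At that stage, the mid-blastula transition, large-scale transcription of the embryo's genome begins. For EU-RNA, embryos received 10 nl of 50 mM 5-ethynyl uridine (EU) at the 1-cell stage. RNA that had taken up this uridine analogue was biotinylated and captured on streptavidin beads. Normal libraries hold newly made RNA mixed with maternal RNA. Per the extraction protocol and the design text they came from normal embryos without EU, although the labels carry the injection protocol on every sample. On the first reading injection and capture both separate the groups and cannot be told apart. No strain, genotype or number of embryos per library is given in the sources used here, nor is it said that replicates came from separate clutches. The p-values therefore rest on a spread between libraries that may be technical.

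Totals were 47598265 to 209445802 estimated counts per library, the lowest and the highest both in Normal. Of 22 tested features of early zygotic genes (such as gs17, mixer and bix1), 16 (72.7%, beside 4.69% of all features) were higher in EU-RNA by edgeR. None was lower (none had a negative fold change at an unadjusted p below 0.05, and DESeq2 and limma-voom called none). Such calls compare EU-RNA with Normal and do not by themselves check the labelled stage. Of 18 features of late differentiation genes, 12 had 0 counts in every library. Only 3 were tested, of which edgeR called 1 (33.3%) higher and none lower. DESeq2 called 1 higher and 1 lower in that list, and limma-voom none. The insulin gene ins.L, a member of the late list named after its values were seen, was at 22.4 ± 6.84 CPM in EU-RNA, against 1.89 ± 0.160 CPM in Normal (SD, n = 2). Levels throughout are CPM, that is, counts put on a common library size with edgeR's TMM factors. They are not per transcript length, so they compare libraries and not genes. Log2 fold changes, also called log2 ratios, are of EU-RNA over Normal, and TMM puts the average transcript near 0.

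Of the 20 features, 18 had enough counts to be tested. At a threshold of 0.05 on the edgeR p-value, adjusted by Benjamini-Hochberg over all 26543 features tested, 5 were higher in EU-RNA: ier5.L, ier5.S, egr1.L, egr1.S and fosl2.S. That is 27.8% of those tested, beside 4.69% of all features tested. None was lower, beside 0.889% of all features (none had a negative fold change at an unadjusted p below 0.05, and DESeq2 and limma-voom called none), and 13 did not pass. DESeq2, which also tested fosl1.L, called 12 higher, beside 12.3% of all features, and limma-voom called 6, beside 4.25%. The edgeR count was 8 without a low-count filter (7.09% of all features), 8 without EU-RNA replicate 1 (10.4%), 11 without EU-RNA replicate 2 (14.9%) and 6 with a replicate block (6.74%). The counts by DESeq2, without a filter and without EU-RNA replicate 2 each include fosl1.L, which had counts in EU-RNA replicate 1 only. Its calls rest on that library alone. The fits with a single EU-RNA library take their spread from the Normal libraries. Both EU-RNA libraries lay above both Normal libraries for 13 of the 18, beside 26.4% of all features. The 13 include fosl2.L, which had 0 counts in both Normal libraries, so its place was fixed once it passed the filter. The median log2 fold change of the 18 was 1.91, also with fosl2.L placed at its bound, against 0.0087 over all features tested. The 20 features together took 0.0721% and 0.0837% of all counts in EU-RNA replicates 1 and 2, and 0.0159% and 0.0143% in Normal replicates 1 and 2. In each library 60.2% to 66.5% of these counts came from ier5 alone.

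**Figure D1:**
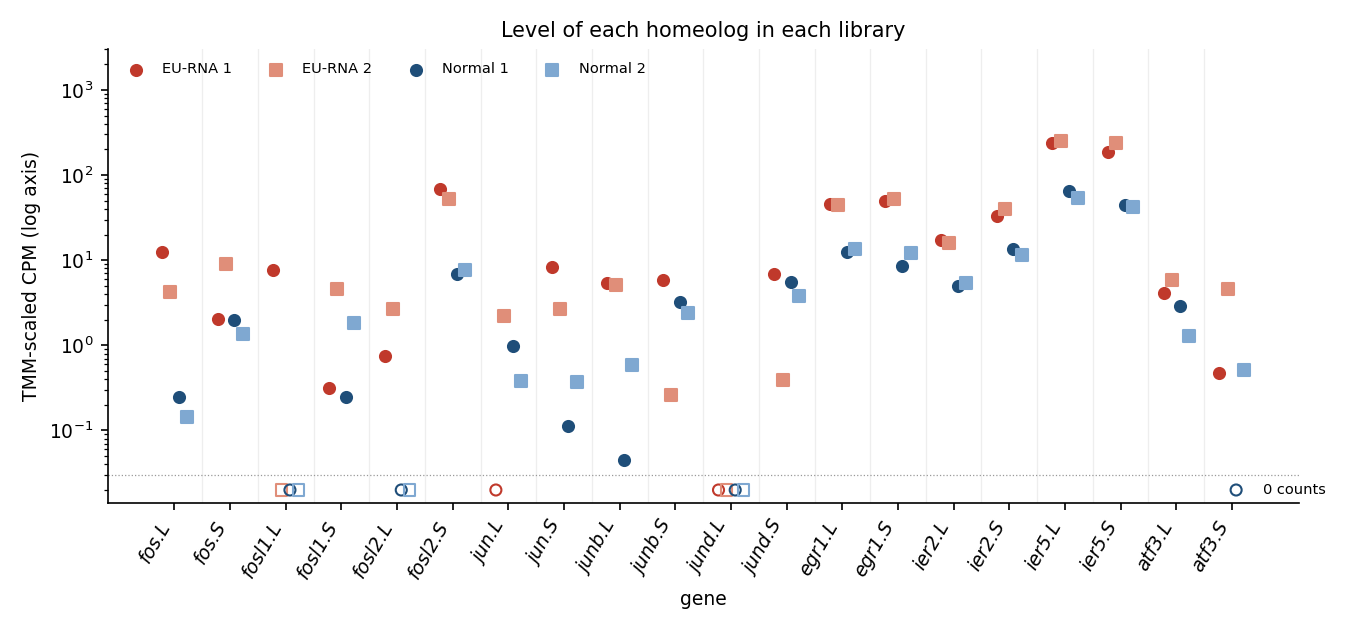
Level of each of the 20 homeologs in each library, in TMM-scaled CPM on a log axis; red marks are EU-RNA, blue marks are Normal, and open marks below the dotted line are libraries with 0 counts. The red marks of egr1, ier2, ier5 and fosl2.S lie close together and above the blue ones, whereas those of the fos, fosl1, jun, junb.S, jund.S and atf3.S features and fosl2.L are spread.

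ier5, whose product is known in mammals to bind the phosphatase PP2A and to activate the heat shock factor HSF1, had the most counts of the set. ier5.L stood at 235 and 254 CPM in EU-RNA replicates 1 and 2 and at 64.3 and 54.3 CPM in Normal replicates 1 and 2. The lowest EU-RNA library was 3.65 times the highest Normal library, and the log2 ratio was 2.04 (SE 0.20, edgeR adjusted p = 0.00541). The S copy was at 186 and 235 CPM against 44.9 and 41.9 CPM, a log2 ratio of 2.28 (SE 0.21, edgeR adjusted p = 0.00495). These are ratios of 4.12 for ier5.L and 4.85 for ier5.S, and both features passed under each of 12 alternative settings. With L and S counts summed, ier5 was at 451 ± 48.5 CPM in EU-RNA, against 104 ± 8.96 CPM in Normal (SD, n = 2), a 4.35-fold difference.

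Its relative ier2, a nuclear protein of the same family, passed as a summed gene and not as single copies. ier2.S was at 33.0 and 40.1 CPM in EU-RNA and at 13.6 and 11.6 CPM in Normal. The groups did not overlap, and the log2 ratio of 1.54 (SE 0.32) lay just short of the threshold (edgeR adjusted p = 0.0518). It passed under 9 of 12 alternatives, DESeq2 (adjusted p = 0.000561) and limma-voom (adjusted p = 0.0399) among them. The 9 include both fits with a single EU-RNA library, which take their spread from the Normal libraries. It did not pass without Normal replicate 1 or 2 (log2 ratios 1.66 and 1.43), nor after thinning to the smallest library (edgeR adjusted p = 0.0503). ier2.L was at 17.0 and 15.9 CPM against 5.02 and 5.45 CPM, with a log2 ratio of 1.65 (SE 0.52, edgeR adjusted p = 0.144). It passed by DESeq2 (adjusted p = 0.00670). Its edgeR log2 ratio was 1.55 and 1.66 without EU-RNA replicate 1 and 2, and 1.6 and 1.72 without Normal replicate 1 and 2. Summed over its homeologs, ier2 was higher in EU-RNA, at 52.5 ± 4.24 against 18.0 ± 1.08 CPM (SD, n = 2), with a log2 ratio of 1.55 (SE 0.26, edgeR adjusted p = 0.0258). That call was lost without Normal replicate 1 (edgeR adjusted p = 0.0536) and without Normal replicate 2 (edgeR adjusted p = 0.0735).

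egr1 had near-equal EU-RNA replicates. egr1.L was at 45.3 and 44.2 CPM in EU-RNA and at 12.3 and 13.7 CPM in Normal, a log2 ratio of 1.79 (SE 0.28, edgeR adjusted p = 0.0207). Without Normal replicate 1 the call of egr1.L was lost (1.72, edgeR adjusted p = 0.0663). egr1.S was at 50.2 and 52.3 CPM against 8.46 and 12.3 CPM, a log2 ratio of 2.30 (SE 0.32, edgeR adjusted p = 0.0141), and passed under all 12 alternatives. Every EU-RNA library was at least 3.24 times every Normal library for egr1.L, and 4.08 times for egr1.S. Summed, egr1 was at 95.1 ± 0.877 CPM in EU-RNA, against 23.6 ± 3.77 CPM in Normal (SD, n = 2), which is 4.03-fold higher (edgeR adjusted p = 0.00722).

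Among the Fos family, whose proteins need a Jun partner to bind DNA, fosl2 (Fra-2) had the clearest signal. fosl2.S was at 68.2 and 51.9 CPM in EU-RNA and at 6.95 and 7.76 CPM in Normal. This was the largest fold change of the 5 features that passed, 3.03 on the log2 scale (SE 0.30, edgeR adjusted p = 0.00555), and it held under all 12 alternatives. fosl2.L was rare. It had 63 and 354 counts (0.740 and 2.64 CPM) in EU-RNA replicates 1 and 2 and 0 in both Normal libraries. By its mean EU-RNA level of 1.69 CPM, it lay 130.5-fold above a floor of 3 counts over the Normal libraries together. By EU-RNA replicate 1 alone it lay nearer that floor, which covers counting error only. It did not pass (edgeR adjusted p = 0.157) but did by DESeq2 (adjusted p = 0.00343). The L copy made up 1.07% (95% Wilson interval 0.840 to 1.37) and 4.84% (4.37 to 5.36) of fosl2 counts in the EU-RNA libraries.

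**Figure D2:**
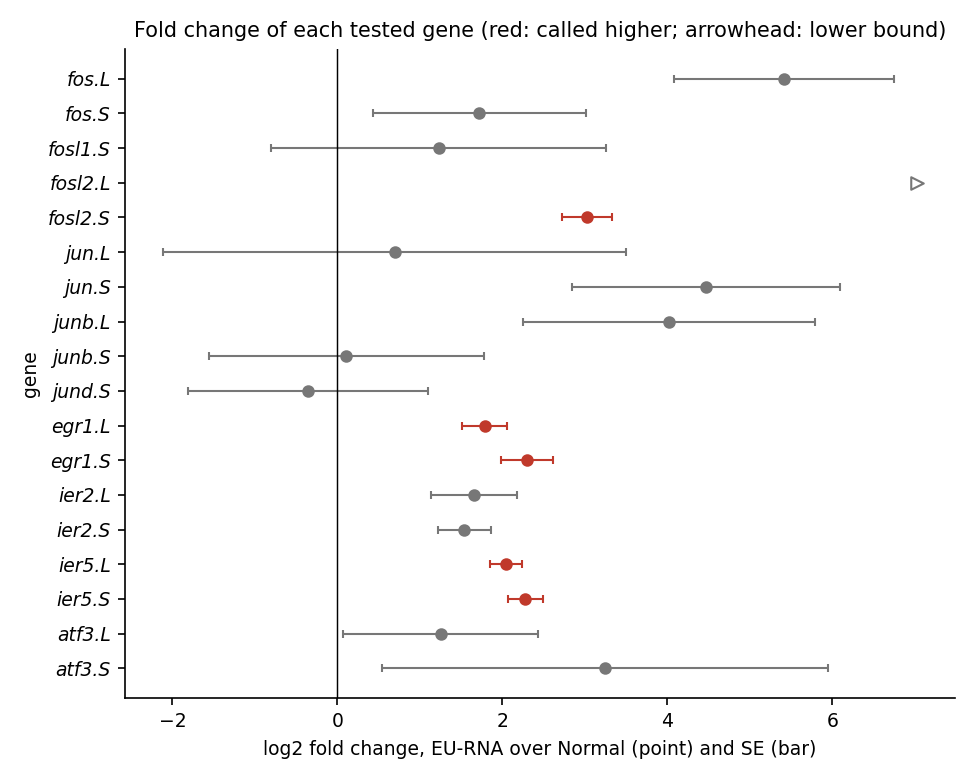
Log2 fold change of EU-RNA over Normal (horizontal axis, point) with its SE (bar) for the 18 tested features. Red marks passed the edgeR test. The arrowhead of fosl2.L sets its mean EU-RNA level over a floor of 3 counts in Normal. The 5 red features lie between 1.79 and 3.03 with SEs of 0.20 to 0.32, and some larger fold changes, such as 5.42 for fos.L, have SEs above 1.

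fos, the founding member of AP-1, was at low levels, and its homeologs differed between the EU-RNA libraries. fos.L was at 12.4 and 4.28 CPM in EU-RNA and at 0.248 and 0.144 CPM in Normal, which stood on 11 and 27 counts. Its log2 ratio of 5.42 (SE 1.33) did not pass (edgeR adjusted p = 0.0809), although the lowest EU-RNA library was 17.3 times the highest Normal library. It passed by DESeq2 (adjusted p = 2.16e-06) and without a filter (edgeR adjusted p = 0.0122). Without EU-RNA replicate 2, its lower EU-RNA library, the log2 ratio was 5.955. fos.S went the other way between the replicates, with 2.02 and 8.99 CPM in EU-RNA against 1.98 and 1.36 CPM in Normal (1.72, SE 1.30, edgeR adjusted p = 0.505).

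Summing L and S brought the EU-RNA replicates of fos together. The summed level was 14.2 and 13.1 CPM in EU-RNA and 2.24 and 1.52 CPM in Normal, so that the EU-RNA libraries differed by a factor of 1.08 where fos.L alone had differed by 2.89 and fos.S by 4.45. The summed log2 fold change was 2.87 (SE 0.73, edgeR adjusted p = 0.0839). This too fell short of the threshold by edgeR and passed by DESeq2 (adjusted p = 8.25e-05).

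fosl1, which encodes Fra-1, was split in the same manner. fosl1.L had 644 counts in EU-RNA replicate 1 and 0 in EU-RNA replicate 2 and both Normal libraries, and was left out of the main test by the low-count filter. It was called higher without that filter (edgeR adjusted p = 0.0163) and by DESeq2 (adjusted p = 2.78e-10), calls that rest on EU-RNA replicate 1 alone. Leaving out EU-RNA replicate 2 keeps only the EU-RNA library with counts, so a higher value there was fixed in advance. It was not called without Normal replicate 1 or 2. fosl1.S had 27 and 618 counts in EU-RNA and 11 and 346 in Normal, and its groups overlapped (1.23, SE 2.03, edgeR adjusted p = 0.796). Without EU-RNA replicate 2 its log2 fold change was -1.74. The summed counts were 671 and 618 in EU-RNA, or 7.80 and 4.57 CPM, against 0.249 and 1.87 CPM in Normal. The summed groups no longer overlapped, but the fold change of 2.54 (SE 1.43) did not pass (edgeR adjusted p = 0.346).

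The Jun genes of the set, whose proteins can pair with each other as well as with Fos, were all below 10 CPM in every library as single copies. jun.S, the S copy of c-Jun, was at 8.31 and 2.68 CPM in EU-RNA and at 0.113 and 0.374 CPM in Normal (4.47, SE 1.63, edgeR adjusted p = 0.163). It passed by DESeq2 (adjusted p = 0.00214). Without EU-RNA replicate 2, its lower EU-RNA library, the log2 ratio was 5.02. jun.L had 0 and 298 counts in EU-RNA and 44 and 72 in Normal, and its groups overlapped. The summed jun counts were 707 and 657 in EU-RNA, or 8.22 and 4.86 CPM, against 1.11 and 0.768 CPM in Normal. Its summed log2 ratio of 2.80 (SE 1.19) passed by DESeq2 (adjusted p = 0.0112) and not by edgeR (adjusted p = 0.208).

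junb, an AP-1 subunit known as a weaker activator than c-Jun, had unlike homeologs. junb.L was at 5.33 and 5.15 CPM in EU-RNA and 0.0450 and 0.588 CPM in Normal (4.02, SE 1.77, edgeR adjusted p = 0.233). It passed by DESeq2 (adjusted p = 0.0197). With 1 library left out its edgeR log2 ratio lay between 3.16 and 6.82. junb.S was at 5.78 and 0.261 CPM against 3.20 and 2.40 CPM, so its groups overlapped (0.11, SE 1.67, edgeR adjusted p = 0.981). Leaving out EU-RNA replicate 1 gave junb.S a log2 fold change of -3.48. Summed junb was at 11.0 and 5.36 CPM in EU-RNA, 2.05-fold apart, against 3.26 and 3.02 CPM in Normal. Its summed log2 ratio of 1.38 (SE 0.89) did not pass (edgeR adjusted p = 0.416).

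jund was the gene of the set whose summed groups overlapped. jund.L had 0 counts in all 4 libraries. jund.S was at 6.90 and 0.395 CPM in EU-RNA and at 5.51 and 3.84 CPM in Normal, so that both Normal libraries lay between the EU-RNA ones (-0.36, SE 1.45, edgeR adjusted p = 0.922). The value turned on the EU-RNA library. With EU-RNA replicate 2 left out it was 0.51, and with EU-RNA replicate 1 left out -3.62. The second jund locus, jund.2.S, which is no member, was at 11.5 ± 6.88 CPM in EU-RNA, against 16.5 ± 2.16 CPM in Normal (SD, n = 2, edgeR adjusted p = 0.676).

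atf3, a bZIP factor of the ATF/CREB family that is induced by stress and often represses its targets, did not pass either. atf3.L was at 4.15 and 5.81 CPM in EU-RNA and 2.90 and 1.28 CPM in Normal, with no overlap (1.25, SE 1.19, edgeR adjusted p = 0.616). atf3.S was at 0.470 and 4.53 CPM against 0 and 0.518 CPM, with overlap (3.24, SE 2.70, edgeR adjusted p = 0.557). Summed, atf3 had its EU-RNA libraries 2.24-fold apart, at 4.57 and 10.2 CPM. The factor was 1.40 for atf3.L alone and 9.63 for atf3.S.

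**Figure D3:**
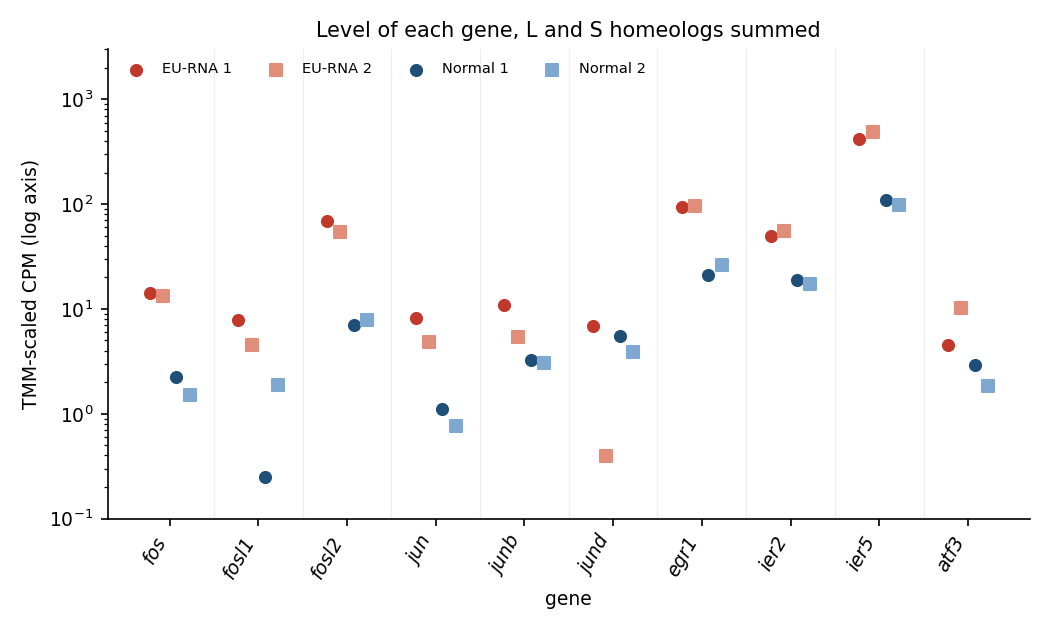
Level of each of the 10 genes in each library with L and S counts summed, in TMM-scaled CPM on a log axis; red marks are EU-RNA and blue marks are Normal. Both red marks lie above both blue marks for 9 genes, and the red marks of jund lie on either side of the blue ones.

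With homeologs summed over the whole table, 4 of the 10 genes were higher by edgeR (egr1, fosl2, ier2 and ier5), beside 4.7% of 21997 symbols tested. Both EU-RNA libraries lay above both Normal libraries for 9 genes, beside 26.7% of all symbols, the exception being jund. The median log2 fold change of the 10 was 2.07, against 0.0048 over all symbols. By DESeq2, 6 were higher, fos and jun being added, beside 12.8% of symbols.

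The features split by abundance. The 7 whose mean log2 CPM over the libraries was 3 or more (both copies of egr1, ier2 and ier5, and fosl2.S) differed by less than 2-fold between replicates in both groups, with EU-RNA replicate 2 at 0.760 to 1.27 times replicate 1. Of these 7, 5 passed, beside 9.39% of all features at that abundance. None of the 11 rarer ones passed by edgeR, beside 0.235% of all features at that abundance that were called higher. Of these 11, 9 differed by over 2-fold between the EU-RNA libraries and 6 between the Normal libraries. Such spread was common among rare features in general. In that abundance range 66.9% of all tested features differed by over 2-fold between the EU-RNA libraries and 54.3% between the Normal libraries. Above it, these shares were 20.2% and 5.24%.

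The share of the L copy in each pair showed where the libraries disagreed. For ier5 the L share was 53.9% ± 2.79 in EU-RNA and 57.7% ± 1.73 in Normal, for egr1 46.6% ± 1.15 and 56.0% ± 4.67, and for ier2 31.2% ± 4.06 and 29.5% ± 3.56 (SD, n = 2). In these 3 genes both copies were present in every library, with replicates 1.62 to 6.61 points apart. The L share of egr1 was below 48.5% in both EU-RNA libraries and above 51.2% in both Normal libraries by their 95% Wilson intervals, which cover counting error only, and this difference was not tested. In fos the L share was 86.0% in EU-RNA replicate 1 (95% Wilson interval 83.9 to 87.8) and 32.3% in replicate 2 (30.1 to 34.5), against 11.1% (6.32 to 18.8) and 9.61% (6.69 to 13.6) in Normal. In fosl1 it was 96.0% (94.2 to 97.2) and 0%, with an upper limit of 0.618%, between the EU-RNA replicates. In jun it went from 0%, with an upper limit of 0.540%, to 45.4% (41.6 to 49.2), and in junb from 48.0% (44.8 to 51.2) to 95.2% (93.4 to 96.5). The Normal replicates were apart as well in jun, at 89.8% (78.2 to 95.6) and 50.7% (42.6 to 58.8). In junb they were at 1.39% (0.382 to 4.92) and 19.7% (16.6 to 23.2), and in fosl1 both were at 0%. These intervals cover counting error only, and the differences between the 2 EU-RNA replicates lie far outside them. With 2 libraries against 2, an exact permutation test of a share cannot go below p = 0.33, so no test of the L share between groups is given.

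**Figure D4:**
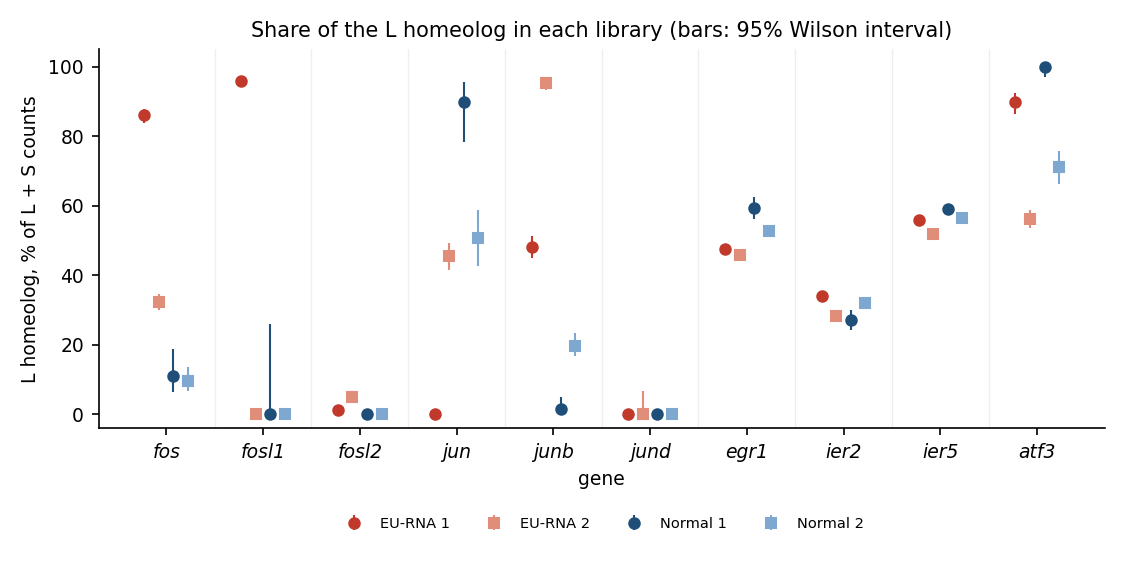
Share of the L homeolog in the summed L and S counts of each gene, in percent, in each library, with 95% Wilson intervals as bars; red marks are EU-RNA and blue marks are Normal. Replicate marks of egr1, ier2 and ier5 lie 1.62 to 6.61 points apart, whereas the red marks of fos, fosl1, jun, junb and atf3 lie 33.6 to 96.0 points apart.

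Such shifts were also seen outside these genes. Among 1204 homeolog pairs with 100 to 2000 summed counts in both EU-RNA libraries, 35.7% differed by more than 25 points in L share between them, and all 5 pairs of the set in that range did (atf3, fos, fosl1, jun and junb). The threshold was chosen after the values were seen. Between the Normal libraries 17.5% of 925 such pairs differed as much. Of the 4 pairs of the set in that range there (atf3, fosl2, junb and jund), 1 did, atf3 with 28.8 points. With no upper limit on the counts, 16.8% of 4800 pairs differed as much between the EU-RNA libraries, among them 5 of 9 pairs of the set. Between the Normal libraries 4.7% of 4616 pairs did, among them 1 of 7 pairs of the set. Reads of near-identical homeologs can be divided wrongly by the counting, so that values of single copies are uncertain. The part of counting, capture and library preparation in these shifts was not tested.

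By the pattern over the 4 libraries, measured as Euclidean distance of log2(CPM + 1) centred on each feature's mean, the symbols most like ier5.L were rab19.L (0.0677), sat1.L (0.105) and ss18l1.S (0.126). Those most like ier5.S were foxi4.2.L (0.0992), slc39a8.L (0.104) and stk32c.S (0.106). Of these 6, sat1.L and foxi4.2.L were called higher in EU-RNA by edgeR. The added 1 CPM shrinks differences at low levels. slc39a8.L, for instance, was at a mean of 4.03 CPM in EU-RNA and 0 CPM in Normal.

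Lists of related genes place the set among its partners and inputs. Of 23 tested features of other AP-1 partners and bZIP factors, 2 (8.7%, beside 4.69% of all features) were higher and none was lower (median 0.82 on the log2 scale). These were mafb.S, a large Maf factor, at 61.3 ± 15.1 against 7.39 ± 2.40 CPM (3.05, SE 0.37, edgeR adjusted p = 0.00948), and atf4.L, the factor of the integrated stress response, at 102 ± 20.9 against 24.3 ± 5.23 CPM (2.07, SE 0.27, edgeR adjusted p = 0.0125; SD, n = 2). The other copies of these genes were not called. mafb.L had a log2 ratio of 1.81 (edgeR adjusted p = 0.288), and atf4.S, whose groups overlapped, 0.47 (edgeR adjusted p = 0.690). fosb, the Fos gene outside the set, was at 11.4 ± 4.11 against 10.4 ± 1.46 CPM (SD, n = 2) for its S copy (0.14, SE 0.55, edgeR adjusted p = 0.920). None of the 4 tested features of egr2 and the Egr co-repressors nab1 and nab2 was called in either direction (median 0.57). Their log2 ratios lay on both sides of 0: -3.32 for nab1.L, -0.23 for nab1.S, 1.36 for egr2.L and 4.19 for nab2.L. nab2.L had 807 and 1 counts in EU-RNA replicates 1 and 2.

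The lists of the route that switches these genes on held features on both sides of 0. Of 20 tested features of serum response and CREB factors, 1 (5%, beside 4.69% of all features) was higher, creb1.S at 93.2 ± 17.5 against 42.1 ± 2.80 CPM (SD, n = 2, log2 fold change 1.15, edgeR adjusted p = 0.0455), and the list median was -0.26. That call was lost without Normal replicate 1 and without Normal replicate 2. Of 28 features of the MAP kinase route, 1 (3.57%) was higher, and none was without Normal replicate 1. The median of that list was -0.10. Both shares lie near that of all features. In the bZIP and egr lists no feature had a negative fold change at an unadjusted p below 0.05, and DESeq2 and limma-voom called none lower. In the serum response and MAP kinase lists 3 and 5 features did, none of them called lower by edgeR or limma-voom. DESeq2 called 3 and 2 lower in these lists, and 2 and 3 higher, beside 2242 lower and 3390 higher of all 27597 features. When EU-RNA replicate 2 was left out, edgeR called more serum response and MAP kinase features, both higher and lower. The same was so over all features, and that fit takes its spread from the Normal libraries.

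Of 53 tested features of other immediate early genes, 26 (49.1%, beside 4.69% of all features) were higher and none lower (1 had a negative fold change at an unadjusted p below 0.05, and DESeq2 and limma-voom called none), and the median was 1.46 on the log2 scale. The smallest p-values belonged to dusp1.S, a MAP kinase phosphatase gene (4.37, SE 0.22), the kinase gene pim1.S (3.45, SE 0.22), the growth arrest gene gadd45a.L (3.22, SE 0.23) and the anti-apoptotic gene mcl1.S (2.86, SE 0.21). ier5l, the closest relative of ier5 and named after its values were seen, had unlike homeologs. ier5l.S was at 337 and 345 CPM in EU-RNA and 67.3 and 67.6 CPM in Normal (2.34, SE 0.18, edgeR adjusted p = 0.00382). ier5l.L was at 189 and 222 CPM in EU-RNA and at 213 and 222 CPM in Normal (-0.08, SE 0.19, edgeR adjusted p = 0.863).

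**Figure D5:**
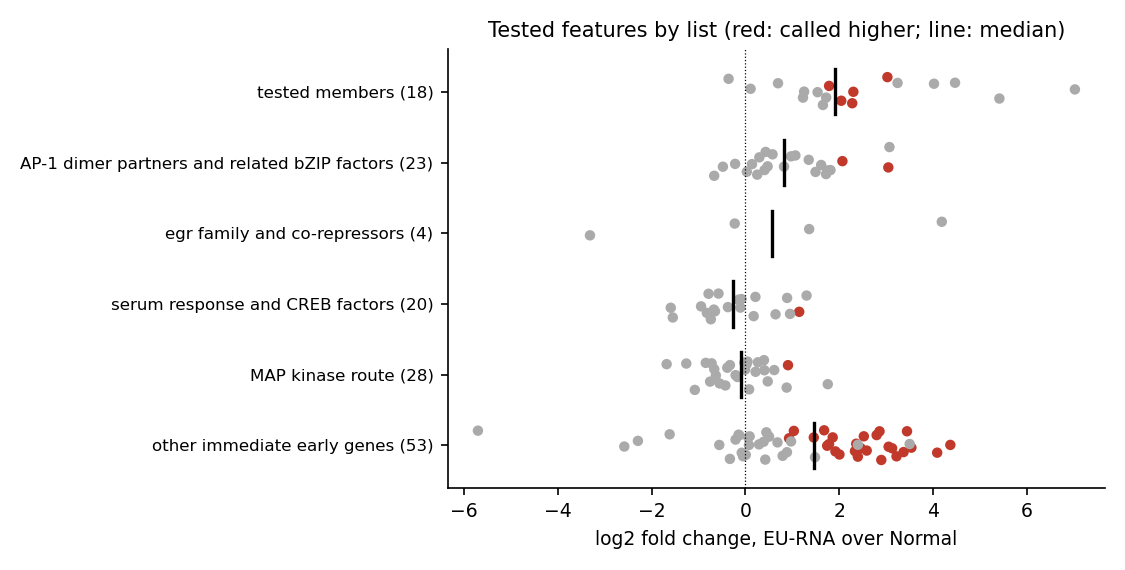
Log2 fold change of EU-RNA over Normal (horizontal axis) of each tested feature in the set of 18 and in the 5 related lists (rows, with the number tested); red points were called higher by edgeR, black lines are medians, and features with 0 counts in a whole group are drawn at their bound. The medians are 1.91 for the set and 1.46 for other immediate early genes, against -0.26 and -0.10 for the serum response and MAP kinase lists.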

How the data were processed

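The authors deposited 1 table of gene-level estimated counts (whole numbers) for the 4 libraries. bcl2fastq and Salmon 0.12.0 were used per the submitters' processing notes. No coordinates or sequences are printed, since the transcript set, genome build, strand setting and any length scaling are not given in the sources used here. Counts were rounded and tested with edgeR 4.0.16 in R 4.3.3 (TMM, default filterByExpr, quasi-likelihood F-test, group as the only term, Benjamini-Hochberg adjustment, threshold 0.05). SEs are the absolute log2 ratio over the root of F. DESeq2 1.42.0 and limma 3.58.1 (voom), other scalings and filters, thinning, a replicate block, each library left out, and L and S counts summed over the whole table were alternatives. For a group with 0 counts, the floor is 3 counts over its libraries together. In counts simulated for this comparison over 26543 genes, 50 genes were changed at each fold. The fit recovered 4% of 2-fold, 46% of 4-fold and 84% of 8-fold changes, with 17 false calls. Members, lists and thresholds were chosen with earlier results of these data known. All members are accounted for, and of each list up to 4 called features with the smallest p are named. Promoter motifs were not analysed here, and 1 gene that this rule names is not reported here.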

Additional observations from a re-analysis of the deposited data

How the results depend on the processing

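Members called higher numbered 8 without a filter and 12 by DESeq2, against 5, and 4 to 11 with 1 library left out (8 without EU-RNA replicate 1, 11 without EU-RNA replicate 2). Members called lower numbered 0 to 1 with 1 library left out. A fit with a single EU-RNA library takes its spread from the Normal libraries. Members called higher without a filter, by DESeq2 and without EU-RNA replicate 2 include fosl1.L, which had counts in EU-RNA replicate 1 only. The members' median log2 fold change stayed at 1.76 to 2.23 with 1 library left out. The median of all features, 0.0087 in the full fit, ranged there from -0.452 (without EU-RNA replicate 2) to 0.234 (without Normal replicate 2). With scaling by library size only, the median was 2.17 for the members and 0.275 for all features. Features called higher, against 1246, numbered 2488 without a filter, 3390 by DESeq2 and 1197 to 4577 with 1 library left out. Those called lower, against 236, numbered 142 with scaling by library size only, 1134 without a filter, 2242 by DESeq2, 385 by limma-voom and 151 to 5218 with 1 library left out.

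Replicate numbers are not said to pair the samples. The correlation of the replicate differences of the groups across tested features was 0.00376. That value alone cannot settle whether equal numbers shared a clutch or day. With a replicate block, 6 members were higher, ier2.S being added, and 1789 features were higher and 680 lower. The block gave 2 higher and 2 lower MAP kinase features and 1 lower serum response feature.

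MAP kinase features called higher, against 1, numbered 2 with DESeq2 size factors, 3 with library size only, 2 without a filter, 2 with a stricter filter, 3 by DESeq2, 0 as summed symbols and 0 to 4 with 1 library left out. Those called lower, against 0, numbered 3 without a filter, 2 by DESeq2 and 0 to 9 with 1 library left out. Serum response features called higher, against 1, numbered 2 by DESeq2 and 0 to 4 with 1 library left out, and those called lower 1 without a filter, 3 by DESeq2 and 0 to 10 with 1 library left out. With 1 library left out, bZIP features numbered 2 to 5 higher and 0 to 1 lower, egr2 and nab features 0 to 2 higher and 0 to 1 lower, and other immediate early features 23 to 32 higher and 0 to 2 lower. Summed, other immediate early symbols called higher numbered 14, against 26 single copies. Summing joins rows, so these counts are not of the same units, and what lowered the number was not tested.

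The sign turned for jun.L by limma-voom (-1.93), with the replicate block (-2.58) and without EU-RNA replicate 2 (-9.23), and for junb.S by limma-voom (-1.51), with the block (-1.16), without EU-RNA replicate 1 (-3.48) and without Normal replicate 2 (-0.08). With each library left out in turn, jun.L ranged from -9.23 to 1.62, junb.S from -3.48 to 0.99, fosl1.S from -1.74 to 3.31 and jund.S from -3.62 to 0.51. The sign also turned for fosl1.S (-1.74) and jund.S (0.51) without EU-RNA replicate 2, and for summed jund without that library (0.48). None of these features passed in the full fit, and the cause was not tested. The alternatives on summed counts, other than the summing itself, were chosen after seeing the data. Thinning to the depth of the smallest library left 5 members called higher, the same number as at full depth. For the rare features, a p that misses the threshold does not show that they did not differ.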
